A study of Mus musculus with 12 samples.

Results

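This report describes the T cell receptor alpha (TRA) repertoire of CD8+ T cells in KO mice, set between 2 tissues. Members were all libraries labelled KO tumor or KO TDLN (tumor-draining lymph node), 6 of the 12 libraries of the series, with 3 a tissue. They held 3470 of the 6563 TRA clonotypes of the series, counting each V segment, J segment and CDR3 nucleotide sequence together as 1 clonotype. Both groups came from mice with a CD8-specific TrIP knockout that had been injected with MC38 tumor cells, and cells that were CD8+ and bound an Rpl18 tetramer were sorted on day 10. The tumor group held the sorted cells of the tumor, and the TDLN group those of the node that drains it. WT tumor and WT TDLN libraries, 3 each, had the same tumor, sort and day and are used only where a KO value is set against them.

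An alpha chain is assembled in the developing T cell by joining 1 V segment (TRAV) to 1 J segment (TRAJ), with bases trimmed and added at the join. The CDR3 loop that spans the join touches the peptide, so the CDR3 nucleotide sequence is a near-unique tag that all descendants of 1 cell carry. Clones that meet their antigen are known to expand in the draining node and to move from there to the tumor. MC38 is a transplanted mouse colon carcinoma line with mutated proteins that T cells recognise. Rpl18 is a protein of the large ribosomal subunit, and the tetramer is a reagent that binds receptors specific for a peptide of it. TrIP, encoded by Pik3ip1, is a membrane protein known to restrain PI3K signalling in T cells. The promoter that drives the CD8-specific deletion and the sex and age of the mice are not given in the sources used here. Nor is it stated that each library came from a separate mouse, so p-values measure the spread between these libraries.

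The clonotypes below are the 2 largest of each of the 6 libraries, shown because the shares given later turn on them. Capitals mark the codons of acidic residues (aspartate and glutamate). Each is a CDR3 as deposited, from the first conserved cysteine codon to the end of the loop, named by its amino acids without the first and last (left out for the TRAV16 TRAJ32 loop). The segments belong to the Tcra locus on mouse chromosome 14, where RefSeq's gene table of an earlier mouse build listed 46 of 47 TRAV and 44 of 44 TRAJ names.
KO tumor 1, TRAV6-1 TRAJ30, VLGEGNAYKVI: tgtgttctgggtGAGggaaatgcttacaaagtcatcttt
KO tumor 1, TRAV7-6 TRAJ42, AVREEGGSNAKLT: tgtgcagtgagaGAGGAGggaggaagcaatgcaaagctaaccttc
KO tumor 2 and 3, TRAV7-4 TRAJ42, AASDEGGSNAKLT: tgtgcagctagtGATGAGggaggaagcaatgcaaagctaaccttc
KO tumor 2, TRAV16 TRAJ27, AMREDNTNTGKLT: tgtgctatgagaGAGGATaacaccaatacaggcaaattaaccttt
KO tumor 3, TRAV7-4 TRAJ7, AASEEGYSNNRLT: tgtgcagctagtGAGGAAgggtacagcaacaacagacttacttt
KO TDLN 1, TRAV3-3 TRAJ17, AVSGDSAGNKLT: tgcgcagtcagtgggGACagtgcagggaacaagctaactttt
KO TDLN 1, TRAV16 TRAJ32: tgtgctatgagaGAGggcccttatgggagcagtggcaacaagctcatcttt
KO TDLN 2, TRAV3-3 TRAJ17, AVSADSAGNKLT: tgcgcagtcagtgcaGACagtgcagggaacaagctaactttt
KO TDLN 2, TRAV16 TRAJ9, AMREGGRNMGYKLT: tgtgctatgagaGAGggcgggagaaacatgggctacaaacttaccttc
KO TDLN 3, TRAV16 TRAJ9, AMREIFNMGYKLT: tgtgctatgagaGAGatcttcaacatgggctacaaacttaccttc
KO TDLN 3, TRAV7-6 TRAJ42, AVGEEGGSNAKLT: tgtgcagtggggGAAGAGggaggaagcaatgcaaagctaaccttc
Of the 5 tumor clonotypes, 4 have a pair of neighbouring acidic codons, and of the 6 node clonotypes 1 has. This trait was picked after the values were seen, and its share over all clonotypes was not computed. Not every large tumor clonotype has one: the largest of KO tumor 1 does not. At ranks 3 to 5 of the tumors, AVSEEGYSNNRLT of KO tumor 1 and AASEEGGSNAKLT of KO tumor 2 have one. The rest of those ranks do not, among them TRAV6-7 TRAJ7 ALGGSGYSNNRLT, which took 5.36% of KO tumor 3. In the nodes none of those ranks has one. The TRAJ7 sequence is deposited 1 base short of a full last codon.

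Productive TRA reads numbered 23633, 40935 and 48788 in KO tumor 1 to 3, against 40483, 63097 and 40077 in KO TDLN 1 to 3. A count of 0 therefore allows a share of up to 0.0127%, 0.00733% and 0.00615% in the tumors and of 0.00741%, 0.00475% and 0.00749% in the nodes. No molecular identifiers are described, so intervals and floors cover counting error only. No read had the rearrangement of invariant NKT or MAIT cells in these 6 libraries. The run log marks KO TDLN 1 and 2 as timed out, and no KO tumor library, so the completeness of those node assemblies and the tissue cannot be told apart.

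Some libraries shared far more clonotypes than others, and the results below rest on this. KO tumor 2 and KO tumor 3 shared 110 clonotypes, which held 94.9% of the reads of KO tumor 2 and 48.3% of those of KO tumor 3. Their Morisita-Horn index, an overlap measure from 0 to 1, was 0.707, and 9 clonotypes passed 1% in both. KO tumor 1 shared 0 clonotypes with KO tumor 2 and 8 with KO tumor 3. Among the nodes, KO TDLN 1 and 2 shared 31 clonotypes (index 0.0721), and 2 passed 1% in both. Sharing also crossed genotype and tissue. KO tumor 3 had an index of 0.398 with WT TDLN 3, and KO TDLN 3 one of 0.410 with WT tumor 3. The shared clonotypes held 49.2% of the reads of KO tumor 3 and 43.3% of those of KO TDLN 3. The labels of these libraries were not checked by any other measurement, and the cause of the sharing was not tested. Single values, clone sizes and TRA segments were therefore also computed with clonotypes found under more than 1 library letter left out, and TRB was not. A letter joins the tumor and TDLN library of 1 number, except that 1 letter joins WT tumor 2 with WT TDLN 1. That setting keeps 21.8%, 4.15% and 4.04% of the reads of KO tumor 1 to 3, against 69.8%, 22.4% and 30.5% of KO TDLN 1 to 3.

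Each tumor held fewer clonotypes than each node. At an equal depth of 15828 reads, KO tumor 1 to 3 held 229.6, 230.2 and 266.0 clonotypes, against 441.0, 370.5 and 402.3 in KO TDLN 1 to 3. Every tumor library lay below every node library. The means were 241.9 ± 20.9 in tumor and 404.6 ± 35.3 in TDLN (SD, n = 3 each), a difference of -162.7 (exact two-sided permutation p = 0.1, the smallest that 3 against 3 allows). This failed the correction over the 18 single-value tests (adjusted p = 0.36). It lay from -179.7 to -144.5 with single libraries left out. With clonotypes of several letters left out it was 14.3 (exact permutation p = 0.8), and the direction turned. The equal depth of that setting was that of the smallest library left, WT tumor 2 with 0.915% of its reads. The 14.3 and the -162.7 are therefore not at the same depth. Clonotypes 1 base from one at least 100 times larger made up 62.9%, 58.5% and 56.5% of the tumor lists and 44.0%, 42.2% and 44.1% of the node lists. With these added to their larger neighbours the difference was -142.7.

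The tissues differed in how reads were spread over clonotypes of middling and small size. Clonotypes of 1% to under 10% of a library held 52.1%, 39.9% and 57.1% of reads in KO tumor 1 to 3, against 24.5%, 24.1% and 32.6% in KO TDLN 1 to 3. They numbered 15, 11 and 22 in the tumors and 7, 9 and 8 in the nodes. The next tier, 0.1% to under 1%, ran the other way, with 10, 12 and 22 clonotypes in the tumors and 62, 57 and 65 in the nodes. It held 7.18%, 5.70% and 9.82% of tumor reads, against 15.9%, 14.9% and 19.5% of node reads. In both tiers the libraries of the 2 tissues did not overlap. With clonotypes of several letters left out, the first tier kept 6, 1 and 1 clonotypes in the tumors and 4, 2 and 2 in the nodes, which overlap. The second kept 8, 3 and 5 in the tumors and 55, 41 and 59 in the nodes, again apart. The tiers were chosen after the values were seen, so they carry no test. V-J pairs with 0.1% or more of a library, summed over their clonotypes, numbered 22, 16 and 34 in the tumors and 64, 64 and 69 in the nodes.

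**Figure D1:**
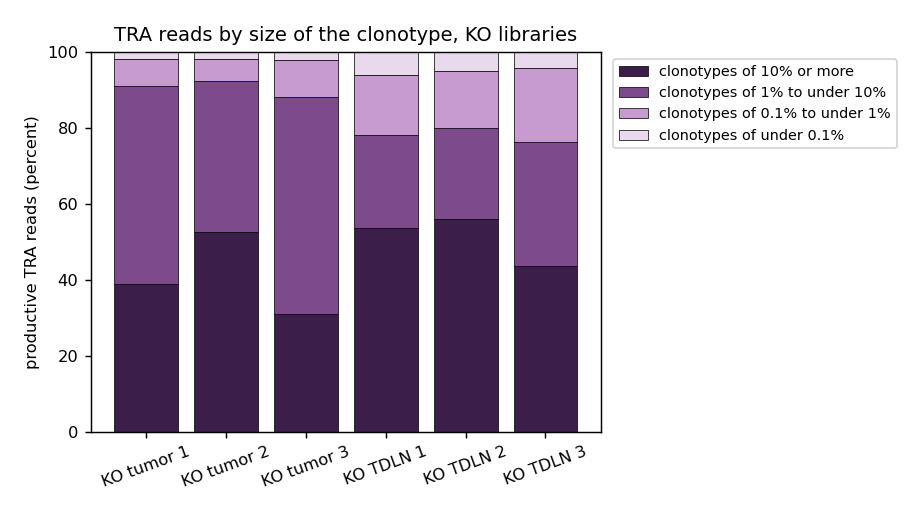
Stacked bars give the percent of productive TRA reads held by clonotypes of each size, for 3 KO tumor libraries on the left and 3 KO TDLN libraries on the right. The tier of 1% to under 10% holds 39.9% to 57.1% of tumor reads and 24.1% to 32.6% of node reads.

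Dominance by the first clones did not separate the tissues. The largest clonotype took 17.3%, 36.7% and 20.9% of KO tumor 1 to 3, against 25.7%, 35.0% and 17.1% of KO TDLN 1 to 3. The groups overlapped (24.99% ± 10.3 and 25.9% ± 8.98, difference -0.943 points, exact permutation p = 1). Clonality, 1 minus the normalised Shannon entropy, was 0.492, 0.607 and 0.487 in the tumors and 0.535, 0.582 and 0.499 in the nodes (exact permutation p = 0.8). The 10 largest clonotypes took 79.6%, 88.2% and 66.9% of tumor reads and 78.1%, 78.99% and 75.1% of node reads. The node values lay inside the tumor range. The authors' deposited largest TRA clone was lower in each library, at 14.1%, 21.3% and 11.3% in the tumors and 20.2%, 29.7% and 13.8% in the nodes, and how it was computed is not stated.

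KO tumor 1 was led by clonotypes that no other KO tumor shared. TRAV6-1 TRAJ30 VLGEGNAYKVI took 17.3% of it, TRAV7-6 TRAJ42 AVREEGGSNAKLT 11.3% and TRAV7-5 TRAJ38 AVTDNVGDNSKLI 10.3%. Each was at 0 reads in KO tumor 2 and 3 and in KO TDLN 1 and 2, and at 0.00998% or less of KO TDLN 3. TRAV21 TRAJ45 ILRVAERGADRLT, at 7.68% of KO tumor 1, was found in no other library. The assignment to TRAV7-4, 7-5 or 7-6 is uncertain, because these V segments are near-identical copies.

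KO tumor 2 and 3 had a common set of leading clonotypes in different proportions. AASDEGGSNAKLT (TRAV7-4 TRAJ42) took 36.7% of KO tumor 2 and 20.9% of KO tumor 3 and had 0 reads in KO tumor 1 and in all 3 KO TDLN libraries. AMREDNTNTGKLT (TRAV16 TRAJ27) took 15.8% and 2.06% of the same tumors, and 0.237% of KO TDLN 1. TRAV14-3 TRAJ48 AASLNDGNEKIT took 8.51% and 3.88% of KO tumor 2 and 3 and had 0 reads in the other KO libraries. The rest of the 9 clonotypes over 1% in both were 2 nucleotide forms of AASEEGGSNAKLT, TRAV7-3 TRAJ27 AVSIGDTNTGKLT, TRAV14-1 TRAJ15 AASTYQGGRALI, TRAV3-3 TRAJ17 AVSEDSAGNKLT and TRAV7-4 TRAJ42 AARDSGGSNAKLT. These 6 took 1.64% to 5.68% of KO tumor 2 and 1.33% to 4.78% of KO tumor 3. KO tumor 3 also held a second set. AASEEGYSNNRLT (TRAV7-4 TRAJ7) took 10.2% of it, and TRAV1 TRAJ4 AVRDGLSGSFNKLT took 7.61%, with 0 reads in the other 5 KO libraries. In WT TDLN 3 the same clonotypes took 11.3% and 4.94%. Of the 24 clonotypes over 1% of KO tumor 3, 9 passed 1% in KO tumor 2 and 10 in WT TDLN 3.

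The nodes had leaders of their own. TRAV3-3 TRAJ17 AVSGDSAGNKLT took 25.7% of KO TDLN 1 and had 0 reads in the other 11 libraries. A sister clonotype that differs at 1 amino acid, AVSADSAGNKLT, had 0.00615% of KO tumor 3 and 0 reads in KO tumor 1 and 2, against 35.0% of KO TDLN 2 and 2.63% of KO TDLN 1. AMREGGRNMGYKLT (TRAV16 TRAJ9), in the nucleotide form printed above, took 20.99% of KO TDLN 2 and had 0 reads in every other KO library. KO TDLN 1 held a TRAV16 TRAJ32 clonotype at 15.1% and TRAV14-2 TRAJ40 AASASTGNYKYV at 12.8%, both with 0 reads in the tumors. TRAV12-2 TRAJ22 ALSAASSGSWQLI took 4.93% of KO TDLN 2 alone. KO TDLN 3 was led by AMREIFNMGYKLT (TRAV16 TRAJ9) at 17.1%, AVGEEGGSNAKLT (TRAV7-6 TRAJ42) at 16.1% and TRAV13-2 TRAJ30 AIDGTNAYKVI at 10.5%. In the tumors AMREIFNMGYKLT reached 0.0212% of KO tumor 1, AIDGTNAYKVI 0.00423% and 0.0369% of KO tumor 1 and 3, and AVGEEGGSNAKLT 0 reads. AIDGTNAYKVI also took 40.2% of WT tumor 3.

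**Figure D2:**
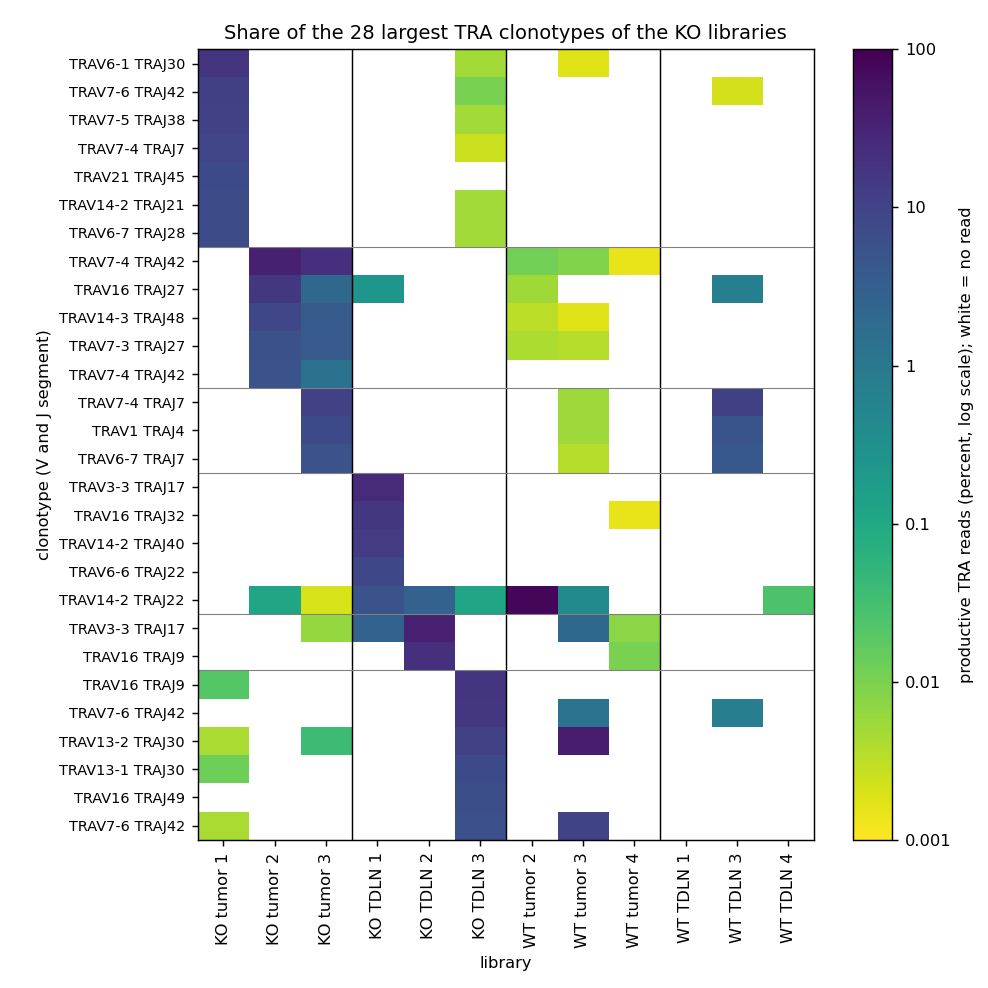
Colour gives the percent of productive TRA reads (log scale) of the largest clonotypes of the KO libraries, 1 row a clonotype and 1 column a library, with KO tumor left of KO TDLN. Clonotypes over 1% in both libraries of a pair number 9 for KO tumor 2 and 3 and 2 for KO TDLN 1 and 2, and 0 pass 1% in both tissues.

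V segment use differed most for TRAV7-4. It took 12.03%, 49.9% and 37.6% of reads in KO tumor 1 to 3, against 0.566%, 0.358% and 0.314% in KO TDLN 1 to 3. All 3 tumors lay above all 3 nodes, as for no other of the 47 TRAV segments tested (1 of 47, 2.13%), while 10 of 47 (21.3%) lay lower in every tumor than in every node. The means were 33.2% ± 19.3 and 0.413% ± 0.134, a log2 fold change of 6.33 against a median of -1.68 over all 47 (edgeR's quasi-likelihood test, Benjamini-Hochberg adjusted p = 0.1403). Its largest clonotype took 8.98%, 36.7% and 20.9% of the tumors, and 0.155% to 0.342% of a node. It comprised 39, 231 and 194 clonotypes in the tumors and 10, 7 and 10 in the nodes. Of the 231 in KO tumor 2, 225 were TRAV7-4 TRAJ42, the pair of its largest clonotype. Counts of clonotypes per segment include those 1 base from one at least 100 times larger, which made up 56.5% to 62.9% of whole tumor lists and 42.2% to 44.1% of node lists. Fitted to the 6 KO libraries alone the adjusted p was 1.95e-05, and by DESeq2 1.98e-05. These tests take the libraries as independent. KO tumor 2 and 3 had a Morisita-Horn index of 0.707, and the clonotypes they shared held 94.9% of the reads of KO tumor 2. With clonotypes of several letters left out the log2 fold change was 2.85 (adjusted p = 0.484).

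The test over all 12 libraries called 0 TRAV segments higher and 0 lower in KO tumor (0% of 47 in each direction). At an unadjusted p under 0.05 edgeR had 3 TRAV segments higher and 10 lower, and DESeq2 called 2 and 6. Lower p-values than that of TRAV7-4 belonged to 3 segments of small share in the nodes, TRAV9-3, TRAV8-2 and TRAV6-4. TRAV9-3 had 0 reads in all 3 tumors, against 0.380%, 0.152% and 0.943% of the nodes. Set against the node mean, the tumor mean is at least 56.4-fold lower (floor of 3 counts per library, edgeR adjusted p = 0.1403). Bounds of this kind hold for means and not for each node. TRAV8-2 also had 0 reads in the tumors, against 0.119%, 0.155% and 0.492%, or at least 29.2-fold lower in the mean (edgeR adjusted p = 0.1403). TRAV8-1 had 0, 0 and 0.00410% in the tumors, against 0.484%, 0.231% and 0.754% in the nodes (edgeR adjusted p = 0.152). TRAV6-4 had 0 reads in the tumors, against 0.116%, 0 and 0.524%, so that those groups touched. The difference of tumor over TDLN between KO and WT was called for 0 of 47 TRAV, 0 of 43 TRAJ and 0 of 301 V-J pairs (edgeR, 0% each), with 8, 7 and 22 at an unadjusted p under 0.05. DESeq2 was not run on that difference.

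Among the large segments TRAV3-3 and TRAV16 had lower shares in every tumor than in every node. TRAV3-3 took 0.00423%, 2.32% and 3.73% in KO tumor 1 to 3, against 32.2%, 37.1% and 6.02% in KO TDLN 1 to 3 (log2 fold change -3.64, edgeR adjusted p = 0.242). TRAV16 took 10.9%, 19.7% and 6.54% in the tumors and 23.2%, 29.6% and 29.3% in the nodes (log2 fold change -1.14, edgeR adjusted p = 0.676). TRAV16 was among the large segments of both tissues, with 37, 80 and 61 clonotypes in the tumors and 192, 273 and 218 in the nodes. With clonotypes of several letters left out, TRAV3-3 took 0, 0.353% and 1.47% of the tumor reads left, against 40.6%, 5.75% and 2.59% of the node reads left. In that setting TRAV16 overlapped, with 10.4%, 5% and 2.69% in the tumors and 5.47%, 10.7% and 34.2% in the nodes. For TRAV7-6, a near copy of TRAV7-4, the groups overlapped, with 14.6%, 2.12% and 5.83% in the tumors and 0.911%, 0.599% and 26.9% in the nodes. Pooled over its copies the TRAV7 family took 37.2%, 57.8% and 49.4% of tumor reads, against 3.98%, 1.98% and 30.3% of node reads, with no overlap. Without the clonotypes of several letters these were 21.4%, 48.5% and 55.2%, against 4.45%, 6.001% and 22.7%, and KO TDLN 3 lay above KO tumor 1. Of the 18.1% of KO tumor 1 with TRAV6-1, 1 clonotype held 17.3 points, and of the 8.62% of KO tumor 2 with TRAV14-3, 1 held 8.51. TRAV14-2 took 9.39%, 0.669% and 3.33% of the tumors and 21.3%, 5.37% and 0.888% of the nodes. TRAV6-6 took 0.0169%, 1.74% and 3.34%, against 10.2%, 2.79% and 3.39%.

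For the J segments the test called 0 of 43 higher and 0 of 43 lower (0% each), with 0 higher and 8 lower at an unadjusted edgeR p under 0.05 and 0 and 7 called by DESeq2. TRAJ7 was the 1 segment with every tumor above every node (2.33% of 43), at 10.3%, 3.53% and 18.5% in the tumors and 0.462%, 0.571% and 0.938% in the nodes (log2 fold change 4.03, edgeR adjusted p = 0.587). Without the clonotypes of several letters its groups overlapped, at 0.583%, 0.176% and 42.99% of the tumor reads left and 0.662%, 1.94% and 3.07% of the node reads left. Every tumor lay lower for 7 of 43 TRAJ segments (16.3%). TRAJ56 had 0 reads in the tumors, against 0.689%, 4.66% and 0.0848% in the nodes, or at least 208-fold lower in the mean (edgeR adjusted p = 0.107). Its node mean of 1.81% rests largely on KO TDLN 2, so the bound does not hold for each node. TRAJ50, TRAJ43 and TRAJ13 were also at 0 reads in all 3 tumors, and at least 105-fold, 62.2-fold and 36.8-fold lower in the mean (edgeR adjusted p = 0.107 for each). Their node shares were 0.269% to 1.47%, 0.223% to 0.913% and 0.212% to 0.477%. All 4 had reads in every node also with clonotypes of several letters left out. That setting only removes reads, so it cannot test their absence from the tumors. These segments sat in clonotypes under 1% of a node, apart from a TRAV16 TRAJ56 clonotype at 4.40% of KO TDLN 2.

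Among the largest J segments, libraries of 1 tissue differed widely. TRAJ42 took 14.6%, 52.0% and 32.2% of the tumors, against 1.11%, 0.320% and 30.2% of the nodes, and KO TDLN 3 lay within the tumor range. TRAJ17 took 0, 2.32% and 2.84% of the tumors and 31.5%, 41.3% and 0.0549% of the nodes. In both cases 1 node or tumor stood far from the others of its tissue. TRAJ9 took 0.0254%, 0.518% and 1.91% of the tumors and 0.699%, 22.3% and 19.2% of the nodes. TRAJ27 reached 21.8% of KO tumor 2 and 6.42% of KO tumor 3, and 0.669% or less of the other KO libraries. TRAJ22 took 3.22%, 0.115% and 0.00205% of the tumors and 14.9%, 9.23% and 0.611% of the nodes. TRAJ30 took 18.1%, 0 and 0.0430% of the tumors and 0.615%, 1.09% and 20.4% of the nodes. For TRAJ22 and TRAJ30 the groups overlapped.

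**Figure D3:**
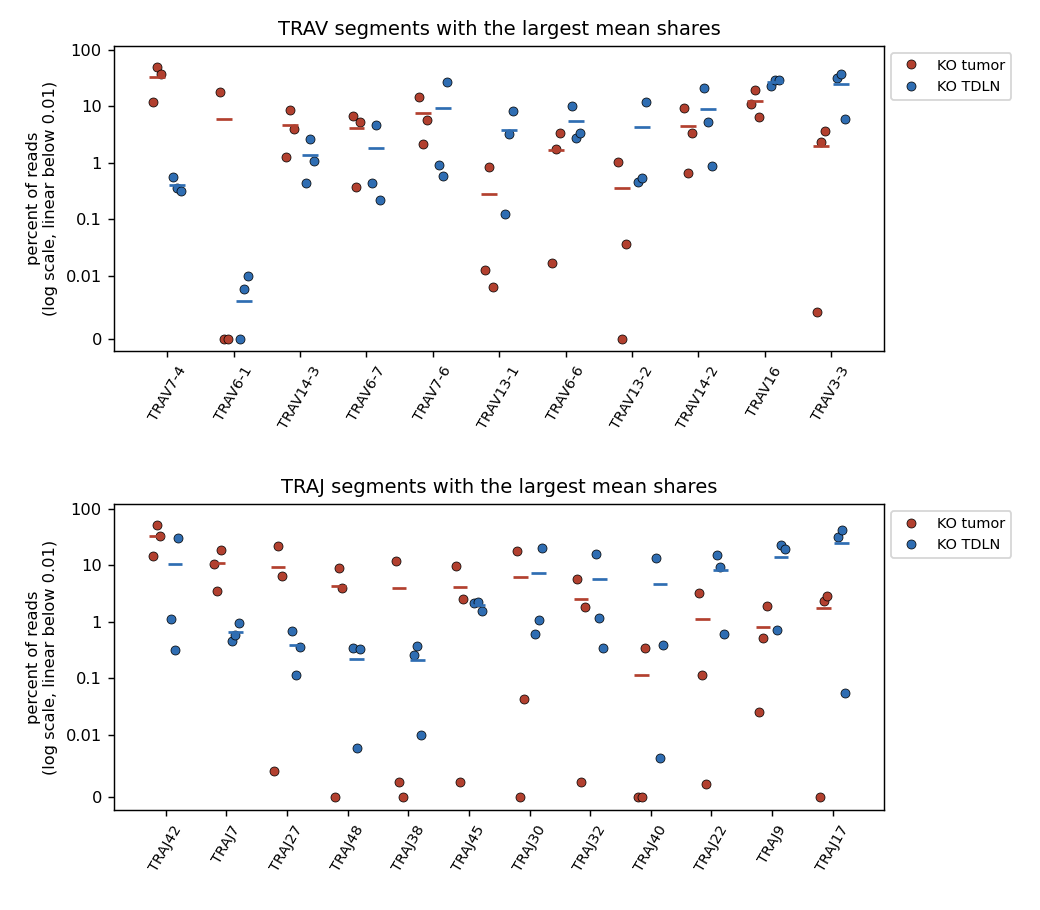
Points give the percent of reads in each KO library (log scale, linear below 0.01) for the TRAV and TRAJ segments with the largest mean shares, with the tumor libraries left of the TDLN libraries at each segment. TRAV7-4 and TRAJ7 are the segments whose 3 tumor points all lie above the 3 node points.

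Of 301 V-J pairs tested, edgeR called 0 higher and 0 lower (0% each), with 3 and 2 at an unadjusted p under 0.05 and 3 and 2 called by DESeq2. The lowest adjusted p was 0.386. Every tumor lay above every node for 1 pair (0.332%), TRAV16 TRAJ52, with 2.25%, 3.16% and 0.726% in the tumors and 0, 0.219% and 0 in the nodes. Its groups overlapped once clonotypes of several letters were left out. The pair then took 10.3% of the reads left in KO tumor 1, but KO TDLN 2 (0.977%) lay above KO tumor 2 (0.765%). Every tumor lay lower for 7 pairs (2.33%). The 301 include pairs with 0 reads in every KO library, which could not separate the tissues. The TRAV7-4 reads came from different pairs by tumor. TRAV7-4 TRAJ42 took 0.00846%, 49.9% and 26.7% of the tumors, against 0.321%, 0 and 0.00499% of the nodes, and TRAV7-4 TRAJ7 took 10.3%, 0 and 10.8%, against 0, 0.00317% and 0.00250%. Neither pair was large in all 3 tumors. Leaving out clonotypes of several letters, the tumor shares were 0, 12.2% and 5.23% for the first and 0.505%, 0 and 1.57% for the second. The leading node pairs were likewise large in 2 of 3 libraries. TRAV3-3 TRAJ17 took 0, 2.32% and 2.82% of the tumors, against 31.0%, 35.8% and 0.00499% of the nodes. TRAV16 TRAJ9 took no more than 1.91% of a tumor, against 0, 21.6% and 18.9% of KO TDLN 1 to 3. Among the 5 pairs of lowest p, TRAV14-3 TRAJ48 and TRAV7-3 TRAJ27 were found in KO tumor 2 and 3, TRAV1 TRAJ4 in KO tumor 3 alone, TRAV14-2 TRAJ40 in KO TDLN 1 alone, and TRAV6-6 TRAJ22 in KO TDLN 1 and, with 0.00158%, KO TDLN 2.

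CDR3 loops had a lower net charge and a lower hydropathy in every tumor than in every node, differences that did not pass the correction. The read-weighted net charge of the central residues, with 3 residues at each end left out, was -0.0810, -0.556 and -0.240 in KO tumor 1 to 3, against 0.281, 0.447 and 0.0963 in KO TDLN 1 to 3. All tumors were below and all nodes above a charge of 0. The difference was -0.567 (means -0.292 ± 0.242 and 0.275 ± 0.175, exact permutation p = 0.1, adjusted 0.36). With each clonotype counted once in place of its reads it was -0.520, and with clonotypes of several letters left out it was -0.0727 (exact permutation p = 0.6). The mean Kyte-Doolittle hydropathy was -1.68, -1.84 and -1.68 in the tumors and -1.38, -1.43 and -1.48 in the nodes, again without overlap (difference -0.307, exact permutation p = 0.1, adjusted 0.36). It was -0.121 with each clonotype counted once, and -0.0289 with clonotypes of several letters left out. Counting each clonotype once still counts those 1 base from one at least 100 times larger. These made up 56.5% to 62.9% of the tumor lists and 42.2% to 44.1% of the node lists. The counts of -0.520 and -0.121 are therefore not free of the weight of the largest clonotypes. In WT mice tumor minus TDLN was 0.416 for charge and 0.427 for hydropathy. The KO minus WT differences of these were -0.983 (exact permutation p = 0.005 over 400 assignments) and -0.733 (exact permutation p = 0.035), or 0.09 and 0.21 adjusted over the 18 tests, neither of which passed. The permutation takes the libraries as independent, although KO tumor 2 and 3 had an index of 0.707. KO tumor 3 shared clonotypes with WT TDLN 3 (index 0.398) and KO TDLN 3 with WT tumor 3 (0.410), so these p-values count some clonotypes in both genotypes.

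Short stretches of the loop with acidic residues, and others of the leading clonotypes, were picked after the values were seen and are given as descriptions. An acidic residue directly before the TRAJ42 stretch GGSNAKLTF was carried by 13.98%, 47.1% and 28.7% of tumor reads, against 0.316%, 0.00158% and 25.4% of node reads. As with TRAJ42 itself, KO TDLN 3 lay inside the tumor range. The TRAJ7 counterpart, an acidic residue before GYSNNRLTL, was carried by 9.06%, 0 and 10.3% of tumor reads and by 0, 0.00317% and 0.00250% of node reads. A start of CAMRE, which comes with TRAV16, was carried by 10.9%, 19.6% and 6.47% of tumor reads and by 22.9%, 29.2% and 28.6% of node reads. The TRAJ17 stretch DSAGNKLTF was carried by 0, 2.31% and 2.28% of tumor reads and by 30.3%, 35.7% and 0.00499% of node reads.

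Loop length did not separate the tissues in the mean. It was 14.5, 14.8 and 14.7 residues in KO tumor 1 to 3, against 14.5, 14.7 and 14.2 in KO TDLN 1 to 3 (difference 0.198, exact permutation p = 0.4). In all 3 tumors 15 residues was the most frequent length, with 45.7%, 74.8% and 60.7% of reads. In the nodes the leading length was 14 in KO TDLN 1 and 2 (57.8% and 49.1%) and 15 in KO TDLN 3 (46.7%). The position of the J segment along the locus, from TRAJ58 to TRAJ2, was also compared. Segments TRAJ41 to TRAJ58, which lie nearest to the V segments, took 27.0%, 64.2% and 48.5% of tumor reads and 9.88%, 13.3% and 41.9% of node reads (exact permutation p = 0.2). Segments TRAJ2 to TRAJ20 took 12.5%, 11.2% and 37.2%, against 37.9%, 68.9% and 24.97% (exact permutation p = 0.2). Both sets of libraries overlapped.

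**Figure D4:**
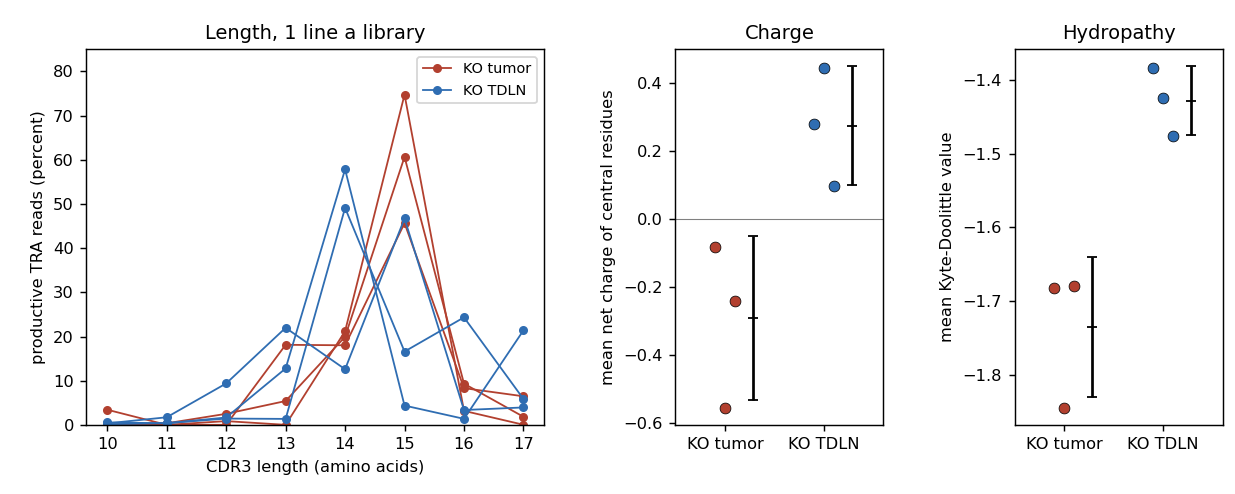
The left panel plots the percent of productive TRA reads at each CDR3 length, 1 line a library. The other panels plot the mean net charge and the mean Kyte-Doolittle value of central residues, 1 point a library, with KO tumor left of KO TDLN. The tumor points lie from -0.556 to -0.0810 in charge and the node points from 0.0963 to 0.447.

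Few clonotypes were found in both tissues, and none of them was large in both. KO tumors held 1209 clonotypes and KO nodes 2300, and 39 were in both with 1 read or more. Of these, 10 had 5 reads or more in both tissues, 2 had 0.1% or more in both, and 0 had 1% or more in both. The shared 39 were 3.23% of the tumor list and 1.70% of the node list. The 2 at 0.1% or more were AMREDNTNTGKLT, with the shares given above, and TRAV14-2 TRAJ22 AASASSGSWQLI. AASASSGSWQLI had 0.1099% of KO tumor 2 and 0.00205% of KO tumor 3, against 5.27%, 2.62% and 0.1098% of KO TDLN 1 to 3. It also took 85.4% of WT tumor 2.

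By clonotype, the overlap of same-numbered tumor and node libraries was not above that of the others. The Morisita-Horn index by clonotype was 4.38e-05, 0.000163 and 0.000630 for numbers 1 to 3, and over all 9 pairs of a KO tumor with a KO node it ran from 9.23e-06 to 0.00292. The mean was 0.000279 for same and 0.000812 for different numbers (exact one-sided permutation p = 0.667, where 0.1667 is the smallest). Clonotypes of the same-numbered node held 3.57%, 0.1099% and 0.0799% of the reads of KO tumor 1 to 3, and 0% where 1% was asked for in both. Adding rare variants to their larger neighbours brought the mean over the 3 tumors to 0.0626%, against 1.25% as listed. By CDR3 amino acids alone the index of KO tumor 1 with KO TDLN 1 was 0.0522, and the mean was 0.0177 for same and 0.00353 for different numbers (exact one-sided permutation p = 0.333).

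The share of node clonotypes found in a tumor was highest for the largest ones, for KO and WT tumors alike. Over the 3 nodes, 12 of 32 clonotypes of 1% or more had a read in some KO tumor (37.5%), and 8 of 184 of 0.1% to under 1% (4.35%). The shares were 1.79% (3 of 168) from 10 reads to under 0.1%, 3.02% (14 of 463) at 2 to 9 reads and 0.602% (9 of 1494) at 1 read. In WT tumors the shares from the largest class down were 62.5%, 11.4%, 6.55%, 12.7% and 5.35%, above the KO share in each class. Of the 32, 5 were found in the tumor of the same number, while 20 were found in a WT tumor. With 5 reads or more asked for in a KO tumor, 1, 1 and 4 were found for KO TDLN 1, 2 and 3. The 12 are 10 different clonotypes, and the highest share any reached in a KO tumor was 0.1099%, for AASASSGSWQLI. Beside those named above they include TRAV13-1 TRAJ30 ALGDTNAYKVI (0.0127% of KO tumor 1, 7.43% of KO TDLN 3) and TRAV3-3 TRAJ21 AVQSNYNVLY (0.00423% and 0.0164% of KO tumor 1 and 3, 5.16% of KO TDLN 3). KO TDLN 3 accounted for 7 of the 12, and KO TDLN 1 and 2 for 3 and 2. Of the 11 clonotypes over 1% of KO TDLN 3, 7 were also found in WT tumors, where all 7 passed 1%.

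Seen from the tumor, 11 of the 18 clonotypes over 1% of KO tumor 1 had a read in a KO node, and 2 of 13 and 2 of 24 of those of KO tumor 2 and 3. For KO tumor 1 none reached more than 0.0174% of a node, and 4 had 5 reads or more in 1. Its leaders VLGEGNAYKVI, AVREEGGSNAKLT, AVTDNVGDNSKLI and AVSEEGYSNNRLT (TRAV7-4 TRAJ7) were each at 0.0025% to 0.00998% of KO TDLN 3, which are counts of 1 to 4 reads, and at 0 in KO TDLN 1 and 2. Others were found in KO TDLN 2, among them TRAV16 TRAJ22 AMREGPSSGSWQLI, TRAV6-5 TRAJ23 TYNQGKLI and TRAV14-2 TRAJ6 AASEVSGGNYKPT, and the shares of these 3 ran from 0.00951% to 0.0174%. The 3 took 20.9%, 13.6% and 4.37% of WT tumor 4. TYNQGKLI, at 3.38% of KO tumor 1, is deposited with 10 residues and without the first conserved cysteine. It was counted as listed in all measures. The 2 found for KO tumor 2 and 3 were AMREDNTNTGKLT and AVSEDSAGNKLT, the second with 0.00247% of KO TDLN 1. For a tumor clonotype with 0 reads in a node, the count allows a share of up to 0.00475% to 0.00749%, depending on the library.

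**Figure D5:**
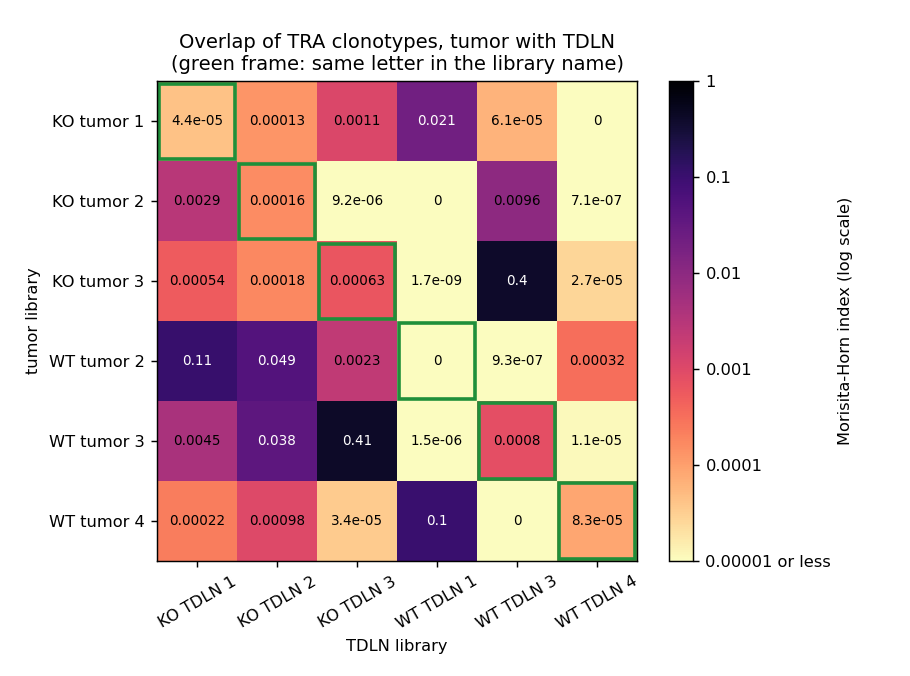
Colour gives the Morisita-Horn index of TRA clonotypes (log scale) for each tumor library (rows) with each TDLN library (columns), and a green frame marks the same letter in the library name. The KO tumor with KO TDLN block lies at 0.00292 or below, while KO tumor 3 with WT TDLN 3 reaches 0.398 and WT tumor 3 with KO TDLN 3 reaches 0.410.

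In some cases node and tumor held the same loop in different nucleotides. The 17-residue TRAV16 TRAJ32 loop took 15.1% of KO TDLN 1 and 3.56% of KO tumor 1 in forms that differ at 1 base, in capitals here.
KO tumor 1, TRAV16 TRAJ32: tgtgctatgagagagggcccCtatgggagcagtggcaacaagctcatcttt
KO TDLN 1, TRAV16 TRAJ32: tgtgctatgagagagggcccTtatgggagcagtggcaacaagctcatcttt
The tumor form was also at 0.0124% of KO TDLN 1, and it took 17.8% of WT tumor 4. The node form had 0 reads in all 3 KO tumors. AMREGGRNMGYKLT (TRAV16 TRAJ9) took 0.601% of KO tumor 3 and 20.99% of KO TDLN 2 in forms 2 bases apart.
KO tumor 3, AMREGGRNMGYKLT: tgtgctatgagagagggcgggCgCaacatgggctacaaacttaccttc
KO TDLN 2, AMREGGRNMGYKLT: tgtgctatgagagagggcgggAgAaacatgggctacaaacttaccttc
The TRAV16 TRAJ52 loop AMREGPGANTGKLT took 2.15% of KO tumor 1 and 0.206% of KO TDLN 2, 1 base apart. Within the tumors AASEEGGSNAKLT came in 2 forms that differ at 1 base, with 5.29% and 3.96% of KO tumor 2 and 1.33% and 1.47% of KO tumor 3, and both had 0 reads in the KO nodes.

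By the authors' deposited shares, the largest clone of the beta chain (TRB) was smaller in every tumor than in every node, which the deposited rows did not show. Their largest TRB clone took 22.4%, 12.5% and 12.3% of KO tumor 1 to 3, against 46.1%, 57.3% and 23.5% of KO TDLN 1 to 3. The groups did not overlap (15.7% ± 5.77 and 42.3% ± 17.2, difference -26.6 points, exact permutation p = 0.1, adjusted 0.36). The top 5 took 60.3%, 55.9% and 45.6% in the tumors and 81.5%, 74.1% and 60.9% in the nodes (exact permutation p = 0.1, adjusted 0.36). For the top 10 the groups overlapped (exact permutation p = 0.5). The deposited rows, held here for the 3 tumors and KO TDLN 3, gave other values: by productive reads the largest TRB loop took 27.8%, 40.5% and 20.5% of KO tumor 1 to 3 and 21.4% of KO TDLN 3. By those rows KO TDLN 3 lay within the tumor range, and how the deposited shares were computed is not stated.

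The leading TRB loops also differed by library, and KO tumor 2 and 3 shared some of theirs. KO TDLN 3 was the only KO node with rows held here, so a division by tissue cannot be told from one by library. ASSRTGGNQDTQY took 40.5% of KO tumor 2 and 13.1% of KO tumor 3, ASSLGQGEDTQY 18.4% and 10.2%, and both had 0 reads in KO tumor 1 and KO TDLN 3. KO tumor 1 was led by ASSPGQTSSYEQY (27.8%) and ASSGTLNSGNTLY (24.0%), which were at 0.0146% and 0.0124% of KO TDLN 3. Both had 0 reads in KO tumor 2 and 3. KO TDLN 3 was led by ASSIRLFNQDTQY at 21.4%, which had 0.0162% of KO tumor 1, 0 reads in KO tumor 2, 0.0286% of KO tumor 3 and 46.5% of WT tumor 3. The 19 TRB loops over 1% of KO TDLN 3 held 0.0393%, 0.000987% and 0.0442% of the reads of KO tumor 1 to 3. In the deposited matrix the same-numbered tumor and node pairs shared 109, 89 and 39 TRB sequences. Their mean Jaccard index was 1.64%, and that of different numbers 1.66% (exact one-sided permutation p = 0.5). The pair KO tumor 2 with KO tumor 3 shared 639.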

How the data were processed

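TCR transcripts were sequenced from 12 libraries, made with TCR-specific primers from polyA RNA per the labels' protocols, and the 6 KO libraries were compared with WT only where stated. Rows come from TRUST4, per the file headers, with counts of reads per CDR3 as deposited and a fraction of the library's TRA total by the authors. The submitters' processing notes name the build GRCm39. A deposited sheet of metrics holds counts and fractions per library, and score columns for the top TRB clone and the number of TRA sequences. Its computation is not stated. A few rows were not analysed here.

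Rows without an open reading frame were left out, which kept 84.2% of 305142 KO TRA reads. TRAJ7 rows, which end 1 base short, were kept at a length of 2 above a multiple of 3. Near-identical V copies marked D or N were pooled. The members, lists and naming rule were chosen with earlier results of these data known. Named were the 3 largest clonotypes of each KO library, those at 1% or more found in the other tissue or in 2 KO libraries, the 5 TRAV and 5 TRAJ of largest mean share per tissue, the 5 of each kind of lowest p, and the 2 largest V-J pairs per library with the 5 of lowest p.

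Single values were compared by exact permutation (n = 3 each) with Benjamini-Hochberg adjustment over 18 tests. Segments with 10 reads in all and 0.1% of some library were tested with edgeR 4.0.16 (R 4.3.3) on counts of all 12 libraries, scaled by the library total, at an adjusted p of 0.05. DESeq2 1.42.0 and limma 3.58.1 were alternatives. The tests and measures were tested on simulated data. The simulated segment counts had a fixed spread between libraries, smaller than that of many segments here. They therefore do not show how the segment tests behave at the spread of these data. The replicate numbers were not taken as pairs, because deviations of same-numbered libraries correlated at -0.11, -0.01 and -0.10.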

Additional observations from a re-analysis of the deposited data

How the results depend on the processing

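With clonotypes found under several library letters left out, tumor minus TDLN was 14.3 for clonotypes at equal depth, 0.0570 for clonality, 10.1 points for the largest clonotype, -5.67 for the number of clonotypes holding 50% of reads and -3.54 for the effective number of TRAV segments, all reversed. That setting leaves 4.04% to 69.8% of a KO library's reads, and the same-against-different overlap could not be computed in it. With the TRAJ7 frame as deposited the largest clonotype gave 1.10 points and TRAJ21 to TRAJ40 gave 1.92, and without both KO libraries numbered 3 (an alternative chosen after seeing the data) TRAJ21 to TRAJ40 gave 7.58. Same minus different number was 0.0142 by CDR3 amino acids alone, and for TRB 0.0839 points as a share of the smaller library. The causes of these reversals were not tested.

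TRAV segments called higher in KO tumor numbered 1 by limma with 0.1% added, 1 by the number of clonotypes, 1 in the KO libraries alone and 2 by DESeq2. The number of clonotypes includes those 1 base from a far larger one. Those called lower numbered 6 by DESeq2 and 3 by limma with 0.1% added. DESeq2 called 7 TRAJ lower, and 3 V-J pairs higher and 2 lower. For V-J pairs limma with 0.1% added called 1 in each direction, and with 1% added 1 lower.

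With single libraries left out, tumor minus TDLN ranged from -0.0491 to 0.0116 for clonality, from -6.79 to 3.61 points for the largest clonotype, from -4.17 to 6.49 for the top 10 and from -14.9 to 8.17 for TRAJ21 to TRAJ40. It ranged from -1.76 to 1.33 for effective TRAJ, from -4.66 to 0.631 for effective V-J pairs and from -109.8 to 550.3 for TRB sequences. Same minus different number ranged from -0.00142 to 0.000303 for TRA and from -0.642 to 0.311 points for TRB. No segment was called with any library left out.

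In the paired analysis, blocked by replicate number and fitted to the 6 KO libraries alone, 1 TRAV segment was called higher. It was TRAV7-4 (log2 fold change 6.19, edgeR adjusted p = 0.00450). Without the block the same 6 libraries also called TRAV7-4 (edgeR adjusted p = 1.95e-05), so the block was not needed for that call. No other segment was called with the block. Single values paired by number had an exact p of at least 0.25, the smallest that 3 pairs allow. Of the values and counts compared, 321 kept direction and side of the threshold, 28 reversed and 13 moved. Single values of tumor against TDLN could not pass 0.05, because their smallest exact p is 0.1, so their side was fixed. For single named segments, 277 comparisons stayed the same and 15 passed the threshold where the main test did not. Few libraries, shared clonotypes and reads without molecular identifiers limit all of these.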
